A study of Mus musculus with 5 samples.

Results

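The genes described here are 10 that build, load and supply the major histocompatibility complex (MHC) class I molecules of the mouse: the heavy chain genes H2-K1, H2-D1, H2-T23 and H2-T24, the light chain gene B2m, the peptide transporter genes Tap1 and Tap2, the tapasin gene Tapbp, and the immunoproteasome genes Psmb8 and Psmb9. They were taken by symbol from a count table of 39179 genes, all 10 were found, and all 10 were among the 13000 genes that passed the filter on low counts. The list of symbols was drawn up with log2 fold changes between KO and control cells known, so its members count as selected on those values, and that difference is given as a description and without a test.

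Class I molecules display short peptides from the cell's own proteins at its surface, where T cells and natural killer cells read them. Proteasomes cut the peptides, the TAP transporter carries them into the endoplasmic reticulum, and tapasin holds the transporter beside an empty heavy chain and B2m until a peptide is bound. Interferons raise the transcription of most of these genes.

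RNA was sequenced from TER119+ erythroid cells, sorted from fetal livers of C57BL/6 embryos at 14.5 days after conception. The 3 control libraries came from Csnk2b+/+ embryos and the 2 KO libraries from Csnk2bfl/fl embryos. Embryos of both groups carried Vav+/Cre, in which the promoter of Vav1 drives Cre recombinase throughout the blood system, and none was treated. Csnk2b encodes CK2 beta, the regulatory subunit of a serine/threonine kinase. Titles number the embryos without saying whether a library came from 1 embryo or a pool, so a p-value here measures only the spread among these samples, which may be technical.

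Library totals lay between 13187094 and 15366021 counts, and the members held between 31 and 3369 counts each in a library. Csnk2b itself stood at 169.5 to 186 CPM (counts scaled to a common library size) in the controls, at 112 CPM in KO replicate 1 and at 95.6 CPM in KO replicate 2, a log2 fold change of -0.80 ± 0.09 (SE, edgeR adjusted p = 0.0018). Control replicate 3 stood apart: it alone held Y-linked transcripts in number, with 454 counts of Eif2s3y against 0 elsewhere, together with Xist at 547 CPM. The 12 erythroid markers summed to 70080 to 86290 CPM in the controls and 62920 to 80720 CPM in the KO libraries; none passed in edgeR, while 4 were lower at an unadjusted p under 0.05 and 4 were called lower by DESeq2. Of 16 macrophage markers 15 were tested, 13 were lower at an unadjusted p under 0.05 and none higher, 12 had both KO libraries below all controls (19.3% of all genes tested), and 5 fell, where 1.83% of all genes did (Adgre1, C1qc, Cd5l, Marco and Vcam1; each of these calls was lost without control replicate 2, with edgeR adjusted p of 0.059 to 0.12), and the list summed to 226 to 259 CPM in the controls and 160.5 and 195 CPM in the KO libraries, with no marker at 0 throughout. The 15 lymphoid, NK and dendritic cell markers summed to 16.01 to 21.9 CPM and 16.8 to 18.3 CPM, with Cd3e, Cd8a and Klrb1c at 0 in every library. The share of all genes tested with an unadjusted p under 0.05 is not given. Counts at that level, here and below, are thus not read as an excess or a lack. Macrophages and lymphoid cells also carry class I transcripts, and their part in the values below was not tested. In sorted bulk cells, a change in the number of cells of a type and a change in RNA per cell cannot be told apart.

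The promoters of the members show which DNA letters lie ahead of genes whose differences were unequal. RefSeq windows on GRCm38.p6 were found for 8 of the 10 genes, H2-T24 and Tap2 being without one. The 250 bases before the transcription start are shown for 5 genes, 5′ to 3′ on the gene's strand, with matched motifs in capitals. H2-K1 and H2-D1 stand for the heavy chains made for peptide display, H2-T23 for a heavy chain with a larger difference, B2m for the light chain with the least separation, and Tap1 for the stretch it shares with Psmb9.
H2-K1: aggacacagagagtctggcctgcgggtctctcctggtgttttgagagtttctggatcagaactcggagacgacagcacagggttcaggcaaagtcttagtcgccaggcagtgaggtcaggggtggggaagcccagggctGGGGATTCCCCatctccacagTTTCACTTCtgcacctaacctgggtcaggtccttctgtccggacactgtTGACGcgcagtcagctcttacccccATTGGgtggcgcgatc
H2-D1: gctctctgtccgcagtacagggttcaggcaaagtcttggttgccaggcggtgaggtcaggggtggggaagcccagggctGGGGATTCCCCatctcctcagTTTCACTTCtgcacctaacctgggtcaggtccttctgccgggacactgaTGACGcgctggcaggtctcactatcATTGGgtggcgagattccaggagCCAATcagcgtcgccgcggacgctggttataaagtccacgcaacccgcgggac
H2-T23: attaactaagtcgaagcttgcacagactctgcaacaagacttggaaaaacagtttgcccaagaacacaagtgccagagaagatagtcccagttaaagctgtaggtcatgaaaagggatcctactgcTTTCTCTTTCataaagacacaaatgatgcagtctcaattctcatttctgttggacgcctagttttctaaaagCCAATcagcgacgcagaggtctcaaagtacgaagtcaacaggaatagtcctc
B2m: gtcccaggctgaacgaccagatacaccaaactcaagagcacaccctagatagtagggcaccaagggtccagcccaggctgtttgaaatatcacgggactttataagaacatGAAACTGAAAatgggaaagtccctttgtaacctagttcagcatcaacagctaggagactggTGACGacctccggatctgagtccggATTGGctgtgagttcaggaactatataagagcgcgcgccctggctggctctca
Tap1: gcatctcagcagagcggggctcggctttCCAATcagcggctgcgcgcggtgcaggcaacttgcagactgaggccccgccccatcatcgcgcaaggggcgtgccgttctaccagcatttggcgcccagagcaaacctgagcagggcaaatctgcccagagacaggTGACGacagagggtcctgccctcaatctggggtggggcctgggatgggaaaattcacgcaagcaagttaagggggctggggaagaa

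The windows lie at chr17:34000348-34000597 (minus strand) for H2-K1, chr17:35262844-35263093 (plus) for H2-D1, chr17:36032702-36032951 (minus) for H2-T23, chr2:122147437-122147686 (plus) for B2m and chr17:34187306-34187555 (plus) for Tap1. Both strands were searched, and a share of all promoters refers to the first window of each of 27025 genes. The enhancer A palindrome (11 bases, the first capitals of the H2-K1 and H2-D1 lines), known to bind NF-kB and related factors, was found in H2-K1 and H2-D1 and in 0.0222% of all promoters. An interferon-stimulated response element core was found as GAA, any 2 bases and GAAA in H2-K1 and H2-D1 (6.34% of promoters) and as GAAA, any 2 bases and GAAA in B2m and H2-T23 (3.04%). In H2-K1, H2-D1 and H2-T23 it is on the opposite strand, so its complement is printed. The class I genes are also known for an X box followed by a Y box, where the factor NLRC5 is recruited. TGACG, part of the X box, followed after 20 bases by ATTGG, the Y box, was found in H2-K1, H2-D1 and B2m and in 0.0925% of promoters. That spacing was set after reading these sequences. TGACG alone was in 17.9% of promoters and in 5 of the 8 members, and CCAAT, the Y box read on the other strand, in 34.5% and in 7 of the 8. TGACG and CCAAT are capitalised in Tap1, CCAAT in H2-T23, and a further CCAAT, the last capitals of its line, in H2-D1. The ATTGG of the pair ends 12 bases before the annotated start in H2-K1 and 72 in H2-D1. The H2-K1 window thus ends before the place of that further CCAAT and cannot show whether H2-K1 has it. The H2-K1 and H2-D1 windows align over 190 bases, of which 166 (87.4%) are identical. Tap1 and Psmb9 are transcribed away from each other from starts 226 bases apart, so that 225 of their 250 upstream bases are the same stretch of DNA. A match is a run of letters and not a measured binding site.

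Transcripts of 9 of the 10 members were higher in both KO libraries than in any control, and B2m was the exception. Over all genes tested, that arrangement was found in 21.9%. Since the members were proposed from this contrast, nothing is read from the difference between these shares. The median log2 fold change of the 10 genes was 0.99, beside 0.01 over all genes tested. A KO mean at least 2-fold the control mean was found for 5 of the 10, and the share over all genes is not given. For the same reason, nothing is read from these values either. Without control replicate 3 all 10 lay above the controls, because that library held the highest control value of B2m.

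**Figure D1:**
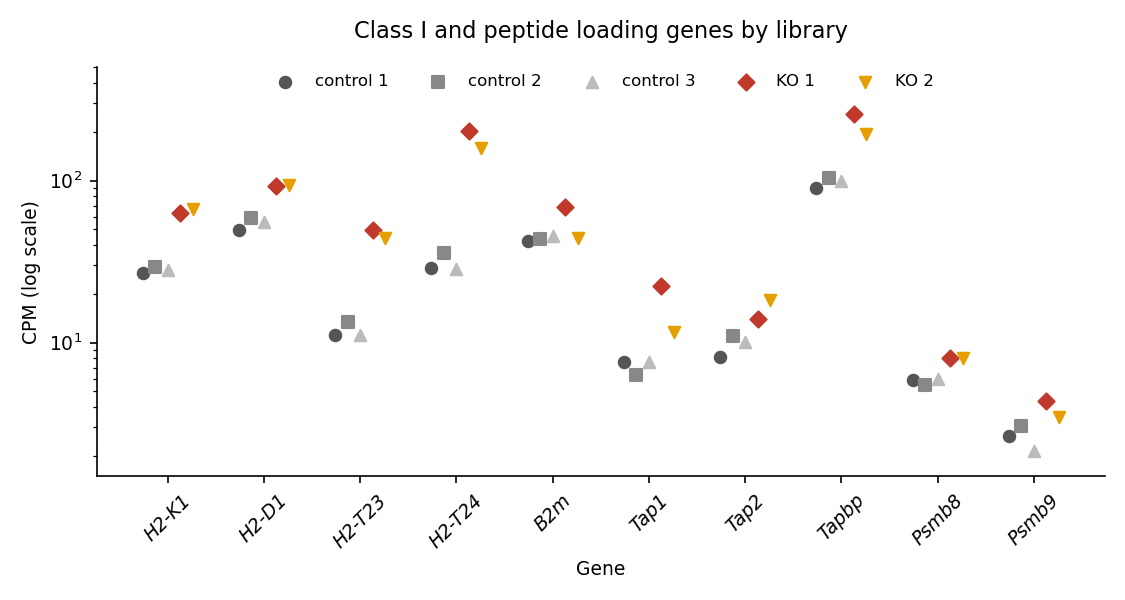
Level of each of the 10 genes in each library, as CPM on a log scale, with 1 point per library (grey for control, red and orange for KO). The KO points lie above all control points except for B2m, where KO replicate 2 at 44.1 CPM sits among controls at 42.4 to 45.3 CPM.

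Among the heavy chain genes, the nonclassical pair had larger differences than the classical pair. H2-K1, which with H2-D1 encodes the classical heavy chains that present peptides to CD8 T cells, had 26.9, 29.5 and 28.1 CPM in the controls, in the order of their replicate numbers as throughout, against 63.5 CPM in KO replicate 1 and 67.0 CPM in KO replicate 2. The libraries of each genotype lay close together and the groups were well apart. The control mean of 28.2 CPM ± 1.30 (SD, n = 3) compared with a KO mean of 65.2 CPM ± 2.49 (SD, n = 2), 2.32-fold, or 1.21 ± 0.08 (SE) on the log2 scale. H2-D1 was at 49.6, 58.5 and 55.9 CPM in the controls and at 92.6 and 94.0 CPM in the KO libraries. Its fold was smaller, at 1.71 (log2 fold change 0.77 ± 0.08, SE), although per kb of exon its level was higher than that of H2-K1 in every library.

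H2-T23 encodes Qa-1, a nonclassical heavy chain that mainly presents a leader peptide of other class I chains to natural killer cell receptors. It was at 11.2, 13.4 and 11.2 CPM in the controls, then 49.8 CPM in KO replicate 1 and 44.1 CPM in KO replicate 2, 3.93-fold (log2 fold change 1.98 ± 0.11, SE). H2-T24, a neighbouring nonclassical gene, had the largest difference of the 10, from 28.9, 35.8 and 28.6 CPM to 202 and 159 CPM. The lowest KO library was 4.43 times the highest control, with means of 31.1 CPM ± 4.08 (SD, n = 3) in controls and 180.3 CPM ± 30.4 (SD, n = 2) in KO, 5.79-fold (log2 fold change 2.54 ± 0.13, SE). Among all 13000 genes tested, 0.469% had a larger log2 fold change than H2-T24. Since H2-T24 was chosen with these values known, nothing is read from that rank. Within a library the ratio of H2-T24 to H2-T23 per kb of exon was 3.38 to 3.54 in the controls and 5.36 and 4.76 in KO replicates 1 and 2, so the pair did not differ in equal proportion.

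Class I heavy chains are similar in sequence, which bears on how their reads were counted. Of the distinct runs of 50 bases in their annotated transcripts, 9.63% for H2-K1, 12.8% for H2-D1, 14.5% for H2-T23 and 3.17% for H2-T24 also occur in a transcript of another gene. H2-T23 and H2-T24 both lie inside A930015D03Rik, an antisense gene counted 10 to 13 times in the controls and 35 and 38 times in the KO libraries. No source used here says if strand was used in counting, so these genes and the antisense gene may hold each other's reads.

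B2m, whose small protein pairs with each of these heavy chains, was the member whose groups overlapped. It stood at 42.4, 43.5 and 45.3 CPM in the controls, at 68.3 CPM in KO replicate 1 and at 44.1 CPM in KO replicate 2. KO replicate 2 fell inside the control range, and the log2 fold change of 0.36 ± 0.16 (SE) went to -0.01 without KO replicate 1 and to 0.64 without KO replicate 2. Per kb of exon, H2-K1 was at 18.2% to 19.8% of B2m in the controls and at 27.2% and 44.5% in KO replicates 1 and 2. H2-D1 was at 39.0% to 44.9% of B2m in the controls and at 45.2% and 71.0% in KO replicates 1 and 2. Both ratios were thus above all controls in both KO libraries, though that of H2-D1 in KO replicate 1 lay just above the highest control.

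The transporter subunit genes were unequal between the KO libraries. Tap1 was at 7.66, 6.33 and 7.63 CPM in the controls, 22.4 CPM in KO replicate 1 and 11.6 CPM in KO replicate 2. KO replicate 1 was 1.93 times KO replicate 2, and both lay above the controls, with a mean fold of 2.36 (log2 fold change 1.22 ± 0.25, SE). It dropped to 0.66 when KO replicate 1 was left out and reached 1.62 when KO replicate 2 was. Tap2, the partner subunit, went the other way between the KO libraries, at 14.1 and 18.3 CPM in KO replicates 1 and 2 against 8.17, 10.98 and 10.13 CPM in the controls (1.66-fold, log2 fold change 0.74 ± 0.16, SE). Per kb of exon the ratio of Tap1 to Tap2 was 0.398 to 0.647 in the controls, 1.10 in KO replicate 1 and 0.437 in KO replicate 2, so only KO replicate 1 left the control range.

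Tapbp encodes tapasin, which bridges TAP and the heavy chain. It was at 90.4, 103 and 98.9 CPM in the controls, 259 CPM in KO replicate 1 and 195 CPM in KO replicate 2. The lowest KO library was 1.89 times the highest control, and the mean fold was 2.33 (log2 fold change 1.22 ± 0.12, SE). Tapbp overlaps Zbtb22, on the same strand, by 3422 bases, and 23.2% of its runs of 50 bases occur in transcripts of other genes. Zbtb22 had a log2 fold change of 0.34 ± 0.09 (SE) and did not pass the test (edgeR adjusted p = 0.058).

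The immunoproteasome genes were low and had some of the smallest folds. Psmb8, which encodes the inducible beta5i subunit, was at 5.86, 5.49 and 5.96 CPM in the controls and at 7.99 and 8.04 CPM in the KO libraries. Its KO libraries were nearly equal and the mean fold was 1.39 (log2 fold change 0.47 ± 0.13, SE). Psmb9, for beta1i, was at 2.64, 3.05 and 2.15 CPM and at 4.38 and 3.499 CPM, which rests on 31 to 57 counts a library (1.51-fold, log2 fold change 0.59 ± 0.20, SE). Although Psmb9 shares its upstream DNA with Tap1, its KO replicates stood at 1.68 and 1.34 times the control mean, beside 3.11 and 1.61 times for Tap1. The annotated exons of Tap1 and Psmb9 lie on opposite strands of genes that overlap by 212 bases, where reads cannot be assigned without strand.

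Beside the subunits they replace, both immunoproteasome genes were low. Per kb of exon Psmb8 was at 7.42% to 10.07% of its constitutive counterpart Psmb5 in the controls and at 11.3% and 6.83% in KO replicates 1 and 2. Psmb5 itself had 18.8 CPM in KO replicate 1 and 31.3 CPM in KO replicate 2 against 15.7 to 19.7 CPM, and did not pass the test (log2 fold change 0.54 ± 0.20, SE, edgeR adjusted p = 0.13). Psmb9 was at 1.23% to 1.65% of Psmb6 in the controls and at 2.38% and 1.74% in KO replicates 1 and 2. The third inducible subunit gene, Psmb10, is not a member and stood higher by this measure. It was at 20.6% to 26.7% of Psmb7 in the controls and 28.6% and 29.8% in the KO libraries. These shares depend on annotated exon lengths, which are 3.38 and 0.899 kb for Psmb8 and Psmb5, and 1.705 and 3.42 kb for Psmb10 and Psmb7. In CPM the control means were 5.77 and 17.3 for Psmb8 and Psmb5, and 19.97 and 176 for Psmb10 and Psmb7. Without length, Psmb8 was thus nearer to its counterpart than Psmb10 was. Neither Psmb6 (log2 fold change 0.12 ± 0.07, SE) nor Psmb7 (0.14 ± 0.07, SE) passed the test.

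**Figure D2:**
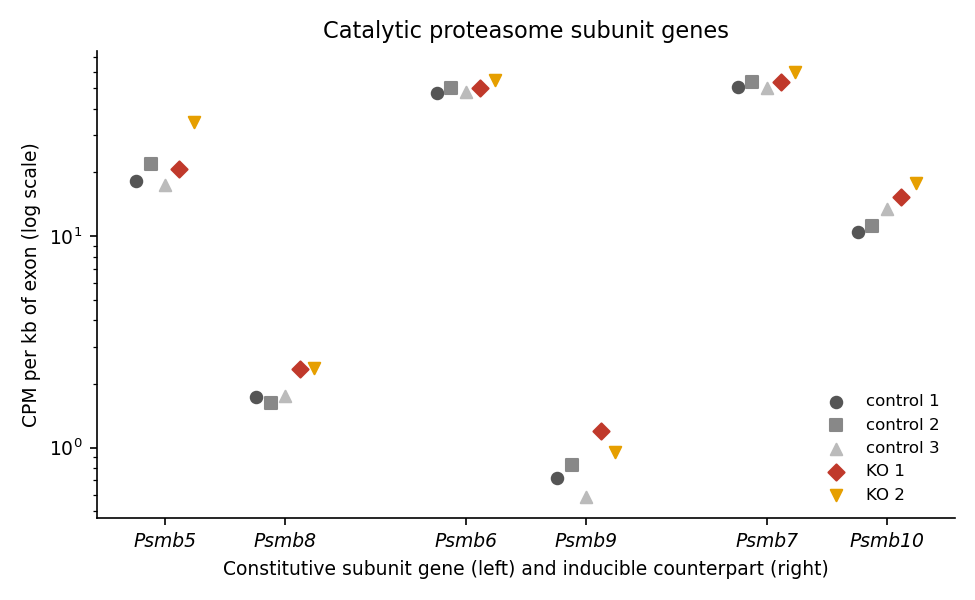
Level per kb of exon, on a log scale, of the constitutive catalytic proteasome subunit genes and their inducible counterparts, with 1 point per library. Psmb8 and Psmb9 lie far below Psmb5 and Psmb6 in all libraries, and Psmb10 lies nearer to Psmb7. These distances depend on annotated exon length. In control means of CPM, Psmb8 was nearer to Psmb5 than Psmb10 was to Psmb7.

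The other inducible proteasome genes are not members and were tested. Like every list of other genes here, theirs was chosen with earlier results of these data known. Their calls are therefore not independent of the choice of list. Over all genes tested, 5.15% were called higher and 1.83% lower in KO, 6.98% in all (edgeR adjusted p below 0.05). Of 8 tested genes of the inducible subunit, PA28 and assembly list, 3 rose in edgeR and none fell (1 was lower at an unadjusted p under 0.05, and DESeq2 called 1 lower), with a median log2 fold change of 0.21. Psmb10 rose by 0.50 ± 0.13 (SE) on the log2 scale, with 17.8 to 22.9 CPM in controls and 26.2 and 30.3 CPM in KO (edgeR adjusted p = 0.045). Psme2, for the beta subunit of the PA28 activator, and its near copy Psme2b had log2 fold changes of 0.45 ± 0.09 and 0.46 ± 0.09 (SE), with edgeR adjusted p of 0.019 and 0.02. Of their runs of 50 bases, 28.3% for Psme2 and 69.3% for Psme2b occur in another gene, so the counts of these near copies are uncertain. Without control replicate 1 these 3 genes missed the threshold, with edgeR adjusted p of 0.18 for Psmb10, 0.1 for Psme2 and 0.091 for Psme2b, and likewise without control replicate 2 or KO replicate 2 (edgeR adjusted p up to 0.18). Psme2 and Psme2b also missed it without control replicate 3 (0.0616 and 0.0915). Of 14 constitutive 20S core genes 1 rose, Psmb3 (0.45 ± 0.09, SE, edgeR adjusted p = 0.024), a call lost when any 1 control or KO replicate 2 was left out (edgeR adjusted p up to 0.11). The median of the core genes was 0.10.

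Set side by side per kb of exon, the members fell into an order that was the same in all 3 controls. B2m was the most abundant at 50.9 CPM per kb ± 1.69 (SD, n = 3), followed by Tapbp at 26.9, H2-D1 at 21.2, H2-T24 at 14.3, H2-K1 at 9.58, H2-T23 at 4.14, Tap2 at 2.58, Psmb8 at 1.71, Tap1 at 1.32 and Psmb9 at 0.714. No neighbours in that order had overlapping control libraries. In the KO libraries H2-T24 came first at 82.6 CPM per kb ± 13.9 (SD, n = 2), ahead of B2m at 65.4 ± 19.9 (SD, n = 2) and Tapbp at 62.6 ± 12.4 (SD, n = 2), and these 3 overlapped in turn. Tap2 and Tap1, at 4.29 and 3.10 CPM per kb, overlapped too, as did Tap1 and Psmb8, at 2.37. Lengths are those of all annotated exons of a gene, so genes with long unused exons appear lower than they are.

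The KO libraries differed from each other in a way that set some members apart. The ratio of KO replicate 1 to KO replicate 2 ran from 0.767 for Tap2 to 1.93 for Tap1, with 6 members higher and 4 lower in KO replicate 1. H2-K1, H2-D1 and Psmb8 were close to equal, at ratios of 0.948, 0.986 and 0.995. H2-T23, Psmb9, H2-T24 and Tapbp were at 1.13, 1.25, 1.27 and 1.33, and B2m was at 1.55. The spread within the controls, as highest over lowest library, was 1.07 to 1.42 for the members. Only Tap1 and B2m had KO libraries further apart than the widest of these control spreads.

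Interferon signalling genes, which are not members, were tested beside them, on a list also chosen with earlier results of these data known. Of 12 tested genes for interferon receptors, JAK kinases and their transcription factors, 3 rose and 1 fell, with 6 higher and 3 lower at an unadjusted p under 0.05 and a median log2 fold change of 0.17. Irf7, a factor that amplifies type I interferon signals, went from a control mean of 10.21 CPM to 198 CPM in KO replicate 1 and 78.9 CPM in KO replicate 2 (log2 fold change 3.77 ± 0.36, SE, edgeR adjusted p = 0.00093). Irf9 and Stat2, whose proteins act together in the ISGF3 complex, rose by 1.12 ± 0.19 and 1.04 ± 0.23 (SE, edgeR adjusted p = 0.01 and 0.027). Irf7 passed whichever library was left out, with a log2 fold change of 2.94 without KO replicate 1. In the same setting Irf9 had 0.68 and Stat2 0.46, against 1.45 and 1.46 without KO replicate 2. Irf9 missed the threshold without control replicate 1 or 2 (0.06 and 0.058), and Stat2 missed it without control replicate 1, 2 or 3 (0.11, 0.12 and 0.082), with DESeq2 (0.057) and with limma-voom (0.051). Ifngr1, a receptor chain for interferon gamma, fell by 0.39 ± 0.09 (SE, edgeR adjusted p = 0.04), a call that was lost without control replicate 1, 2 or 3 or KO replicate 2 (0.14, 0.1, 0.17 and 0.11), with DESeq2 (0.084) and with the replicate block (0.11). All 3 genes that rose were higher in KO replicate 1, by 1.69 to 2.51 times, and Tap1 was the only member whose ratio lay within that range.

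**Figure D3:**
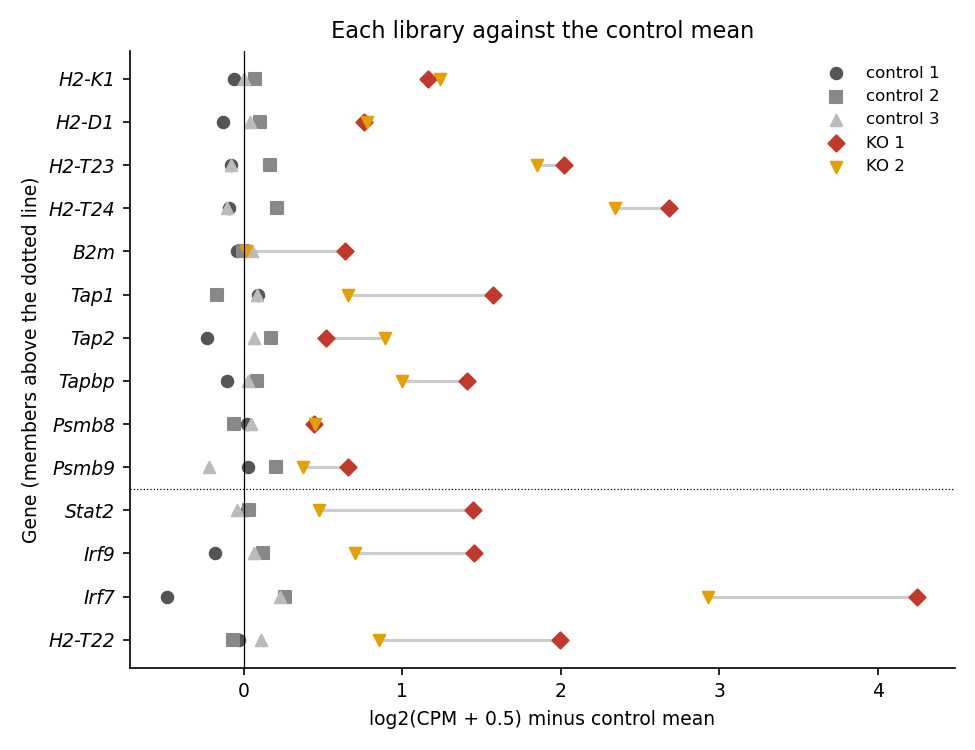
Each library as log2(CPM + 0.5) minus the control mean, for the 10 members (above the dotted line) and for the interferon signalling genes that rose and H2-T22 (below it), with a grey bar joining the KO libraries. The bar is short for H2-K1, H2-D1 and Psmb8 and long for B2m, Tap1 and all 4 genes below the line.

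Among the other class I heavy chain genes of the MHC, 24 were in the table and 3 had enough counts to be tested. H2-T22, a nonclassical heavy chain gene next to H2-T23, was at 9.65, 9.38 and 10.7 CPM in the controls, 41.0 CPM in KO replicate 1 and 18.3 CPM in KO replicate 2 (log2 fold change 1.57 ± 0.28, SE, edgeR adjusted p = 0.013). It missed the threshold without control replicate 1 or 2 (0.072 and 0.083), its log2 fold change dropped to 0.86 with KO replicate 1 left out and reached 2.04 with KO replicate 2 left out, and 53.5% of its runs of 50 bases occur in other genes. H2-K2, annotated as a transcribed pseudogene, went from 0.61 to 0.772 CPM to 6.92 and 3.56 CPM, that is from 8 to 12 counts to 90 and 55 counts (log2 fold change 2.93 ± 0.34, SE). It passed the filter on low counts only through its KO libraries, since 1 control cleared the cutoff where 2 libraries were needed, so a difference was built into its testing and no test is given for it. H2-Q10 was the gene that did not pass (-0.12 ± 0.29, SE). Of the 24 genes, 13 had no count in any library and 19 had fewer than 10 counts in each. Of 3 tested class I-like genes outside the MHC none passed in edgeR, DESeq2 or limma-voom, with 1 at an unadjusted edgeR p under 0.05. Fcgrt, for the neonatal Fc receptor, was at 3.81 CPM in the controls and 2.46 CPM in KO (edgeR adjusted p = 0.1), and Cd1d1, which presents lipids, had a log2 fold change of 0.08 ± 0.24 (SE).

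No difference was called among the trimming and loading genes, many of which also serve other proteins. Of 17 tested genes for peptide trimming and endoplasmic reticulum loading none passed in edgeR, DESeq2 or limma-voom and 1 was higher at an unadjusted edgeR p under 0.05, with a median log2 fold change of 0.04. Calr, for the chaperone calreticulin, averaged 693 CPM in controls and 696 CPM in KO, a log2 fold change of 0.01 ± 0.08 (SE). Canx, for calnexin, which holds new heavy chains, had a log2 fold change of -0.07 ± 0.08 (SE).

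The class I promoter-binding factor genes were also without a call. None of 12 tested passed in edgeR, DESeq2 or limma-voom, 3 were lower at an unadjusted edgeR p under 0.05, and their median was -0.05. Nfyb, of the same list, had an unadjusted edgeR p of 0.0502 and an adjusted p of 0.21. Unadjusted p-values under 0.05 were thus common among all genes tested. Nlrc5, the factor that acts on class I promoters, was too low to be tested, with 7, 4 and 4 counts in the controls and 21 and 10 counts in KO replicates 1 and 2. Irf1, an interferon-induced activator of class I promoters, was at 4.21 CPM in the controls and 4.97 CPM in KO (0.22 ± 0.22, SE, edgeR adjusted p = 0.58), and its groups overlapped. Nfya, a subunit of the factor that binds the Y box, was at 148 CPM and 129 CPM (-0.20 ± 0.07, SE, edgeR adjusted p = 0.14), and Atf1, of the family that binds the X2 box, at 89.9 CPM and 86.3 CPM (-0.06 ± 0.07, SE).

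No difference was called among MHC class II pathway genes, several of which lie among the members on chromosome 17. Of 7 tested none passed in edgeR, DESeq2 or limma-voom and 1 was higher at an unadjusted edgeR p under 0.05, with a median of -0.29. None had both KO libraries above all controls (21.9% of all genes tested) and 2 had both below (19.3%). The class II beta chain gene H2-Ab1 was at 2.96 to 3.33 CPM in the controls, 3.31 CPM in KO replicate 1 and 7.58 CPM in KO replicate 2 (edgeR adjusted p = 0.13). Ifi30, for a thiol reductase of the class II pathway, had a log2 fold change of -0.01 ± 0.08 (SE), and Ctss, for the protease cathepsin S, one of -0.29 ± 0.15 (SE).

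The list names genes of the MHC, which lies on chromosome 17, so the position of most members follows from the list. Of the 10 members 9 lie on chromosome 17, from 33915899 to 36032855 in build mm10, and Csnk2b lies between them from 35116196 to 35122053. H2-D1 is the nearest, 0.141 Mb away, and Tapbp the farthest, at 1.19 Mb. On the log2 scale H2-D1 had 0.77, H2-T24 at 0.884 Mb had 2.54 and Psmb8 at 0.915 Mb had 0.47. A relation between distance from Csnk2b and the size of a difference was not tested. B2m, on chromosome 2, was the member with overlapping groups and the smallest fold. Among the other 85 genes tested within that span, 13 rose (15.3%) and 3 fell (3.53%), with a median log2 fold change of 0.14. Over all genes tested, 5.15% rose and 1.83% fell. The genes that rose include H2-K2, for which no test is given above. They also include A930015D03Rik, which may hold reads of H2-T23 and H2-T24. The 3 that fell were Csnk2b itself, at -0.80 on the log2 scale, Gpank1, centred 0.004 Mb from it, at -0.88, and Ier3, at -0.55. The calls of Gpank1 and Ier3 were not followed when a library was left out. The controls carry no floxed allele, so the loss of Csnk2b and any sequence difference linked to the floxed allele cannot be told apart for genes of this stretch.

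**Figure D4:**
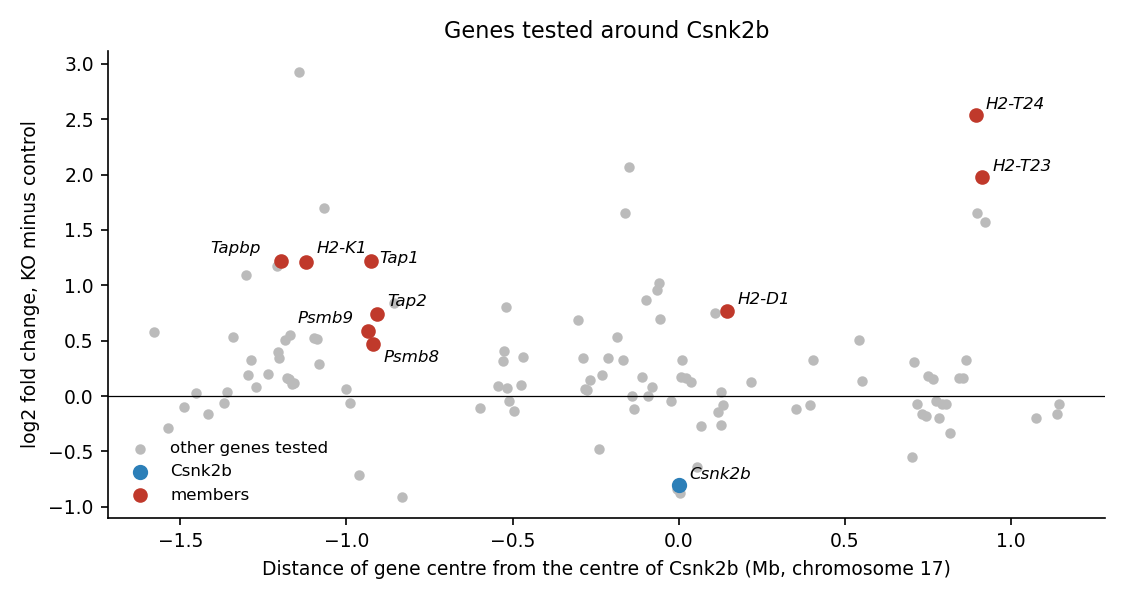
Log2 fold change (KO minus control) of the genes tested on chromosome 17 against distance from Csnk2b in Mb, with members in red, Csnk2b in blue and other genes in grey. Members lie on both sides of Csnk2b, H2-T24 and H2-T23 at 2.54 and 1.98 and the other 7 between 0.47 and 1.22.

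The nearest tested protein-coding genes on either side of the members came to 13, counting Zbtb22, which overlaps Tapbp. Of these, 6 rose and none fell in edgeR, with a median of 0.39, where 5.15% of all genes tested rose and 1.83% fell. H2-T22, a class I gene described above, is 1 of the 6. Beside Tapbp, Daxx and Rgl2 rose by 0.40 ± 0.09 and 0.50 ± 0.10 (SE, edgeR adjusted p = 0.037 and 0.019), against 1.22 for Tapbp itself. Beside H2-K1, Ring1 rose by 0.53 ± 0.12 (SE, edgeR adjusted p = 0.03) and Vps52 did not pass (0.12 ± 0.07, SE). Ddx39b, 9023 bases from H2-D1, had 0.03 ± 0.07 (SE), and Gnl1, beside H2-T24, had 0.33 ± 0.17 (SE, edgeR adjusted p = 0.27). On chromosome 2 the genes flanking B2m, Spg11 and Sord, rose by 0.41 ± 0.08 and 0.39 ± 0.07 (SE, edgeR adjusted p = 0.02 and 0.014). These 5 calls were lost without control replicate 1 or 2 (edgeR adjusted p up to 0.15), and all but that of Rgl2 without control replicate 3 (up to 0.13). Without KO replicate 1 the call of Daxx was lost (log2 fold change 0.24, edgeR adjusted p = 0.066), and without KO replicate 2 those of Ring1 and Rgl2 (0.13 and 0.067).

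The genes nearest to the mean of the 10 members across the 5 libraries were found by distance. It is the root mean square difference between a gene's centred log2 CPM and that mean. Of the non-members with at least 5 CPM on average, the nearest was Homer2, at a distance of 0.0573, with 17.3 to 18.4 CPM in the controls and 41.7 and 33.1 CPM in KO replicates 1 and 2. Sap30l, Jund, Tecpr1 and Pkd1l3 followed at 0.0933, 0.0975, 0.107 and 0.112. Jund, whose protein is an AP-1 component, ranged from 42.5 to 53.7 CPM in controls against 100.1 and 95.7 CPM in KO. The members' mean stood at 1.19 and 0.96 above the control mean in KO replicates 1 and 2 on this log2 scale, and at -0.06, 0.08 and -0.01 in the controls. A small distance thus mostly reflects a KO difference of like size, and shared regulation was not tested.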

How the data were processed

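RNA-seq of 5 libraries, 3 control and 2 KO, was deposited as a table of whole-number counts per gene. Per the submitters' processing notes, cutadapt, STAR, Bowtie and HTSeq were used with build mm10; no source used here gives versions, settings or strand use. Symbols and exon lengths came from GENCODE M21 (37607 of 39179 identifiers matched), promoters from RefSeq.

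Deposited counts were tested with edgeR 4.0.16 (quasi-likelihood, TMM scaling, filterByExpr, R 4.3.3), with Benjamini-Hochberg adjustment over 13000 genes and a threshold of 0.05. The fit had 3 residual degrees of freedom, and the script was tested on simulated data. CPM is scaled by TMM. Alternatives were RLE scaling, DESeq2 1.42.0, limma-voom 3.58.1, other filters, a replicate block and leaving out each library.

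The members and the 15 lists of other genes were chosen with earlier results of these data known. The text names the members, Csnk2b, up to 4 called genes per list (or, where none passed, the 2 of highest mean), catalytic proteasome subunits, Nlrc5 and Irf1, flanking genes and the 5 nearest patterns. C1qc, Gpank1, Ier3 and the sex-linked genes were named after their values were seen. 1 gene of the interferon signalling list is not reported here and is left out of its counts. Lists for granulocytes, megakaryocytes, hepatocytes and endothelium gave no call in edgeR, with 2, 2, 0 and 2 genes at an unadjusted p under 0.05, and DESeq2 called 1 megakaryocyte marker.

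Replicate numbers occur in both groups, but the labels do not say that a number marks a shared litter. Deviations of same-numbered libraries correlated at 0.0016 (number 1) and 0.042 (number 2). KO replicate 1 and control replicate 3, of unlike number, gave 0.0435. With 2 KO libraries, the deviations of 1 mirror those of the other. The values are thus not separate checks and cannot decide whether a number marks a pairing.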

Additional observations from a re-analysis of the deposited data

How the results depend on the processing

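Counts of calls depended on the libraries used and on the filter. With all genes of at least 1 count kept, the count of genes higher in KO was 235 in place of 669 and that of genes lower in KO 53 in place of 238; the companion lists gave 2 higher and 0 lower, in place of 9 and 1. Leaving out 1 library in turn gave 210 to 1709 genes higher and 31 to 1247 lower, with the lowest numbers without control replicate 2 and the highest without KO replicate 1, where the lone KO library is assumed to vary like the others. The companion lists then gave 2 to 17 higher and 0 to 10 lower. With the replicate block, 702 genes were higher and 171 lower, 0 companion genes were lower, and the calls of Daxx and Ifngr1 were lost (adjusted p = 0.057 and 0.11). The numbers of the labels are shared by 2 pairs only. Their deviations correlated at 0.0016 and 0.042, which cannot decide whether a number marks a pairing. Members above all controls numbered 9 or 10 in every setting run. For the targeted gene Csnk2b the log2 fold change stayed between -0.94 and -0.70. Of the members, the sign changed for B2m alone, from 0.36 to -0.01 without KO replicate 1. Csnk2b stayed past the threshold without any 1 control. Besides Csnk2b, 19 called companion, marker and flanking genes were followed, and Irf7 did so too. H2-K2, also among the 19, stayed past it as well. The KO libraries of H2-K2 carried it through the filter, so nothing is read from its passing. C1qc, followed apart from these, did not stay past the threshold. The smallest number of libraries in a group, 2, limits the precision.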
